A study of Mus musculus with 12 samples.

Results

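Cytosolic ribosomal protein genes encode the proteins of the large and small subunits of the ribosome that translates nuclear-encoded mRNA. They were taken here as the protein-coding rows of the count table whose symbol starts with Rpl or Rps and a digit, or is Rpsa or Rplp0 to Rplp2. S6 kinase genes, Rps19bp1 and Rpl7l1 were left out. This gave 99 of 49585 genes, 64 of the large and 35 of the small subunit. Of these, 77 are the standard genes (46 large, 31 small), 8 are paralogs with a related symbol and 14 are copies whose symbol ends in -ps and a number although the deposited annotation lists them as protein coding.

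Each ribosome needs its proteins in fixed proportions, and their mRNAs are among the most abundant of the cell. Most of these mRNAs begin with a run of pyrimidines at the cap, the 5′ terminal oligopyrimidine (TOP) motif, through which the kinase complex mTORC1 and the RNA-binding protein LARP1 control their translation and stability. Ribosomal protein mRNA is carried by every cell type of the lung, with levels that differ between cell types and with growth state.

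RNA from whole lung of C57BL/6J mice was sequenced in 12 libraries, 3 in each of 4 groups, and all mice carried an MO4 melanoma under the skin. The young anti-PD-1 group was 2 months old and received an antibody against the T cell checkpoint receptor PD-1. The mice of the 3 other groups were 22 months old and received a control antibody (aged control), anti-PD-1 (aged anti-PD-1), or anti-PD-1 plus an anti-IL-21 receptor antibody (combination). Anti-PD-1 and control antibody were injected on days 3, 7 and 11 after inoculation, and the labels give no day for the anti-IL-21 receptor antibody. No young mice received control antibody, so age was compared under anti-PD-1 alone. Whether the libraries of a group came from separate mice is not stated in the labels. Every p-value below therefore rests on the spread between samples, part of which may be technical.

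Library totals ran from 16021877 to 22058620 counts, and 18556 genes had enough counts to be tested, among them 91 ribosomal protein genes (56 large, 35 small). Spread within groups exceeded counting noise, with a chi-square per degree of freedom of 9.64 to 48.2. All 10 alveolar epithelial markers were tested and took 1.62% to 3.39% of the counts of a library, while melanoma markers took 0.00151% to 0.00225%. Levels are given in CPM, counts per 1000000 counts of the library, scaled by TMM (edgeR's trimmed mean factors). Differences are log2 fold changes ± SE between groups of 3 libraries. The SE was derived from the F of the edgeR quasi-likelihood test, whose dispersion was estimated over all 12 libraries. Calls are genes whose p from the edgeR quasi-likelihood test, with Benjamini-Hochberg adjustment across the 18556 genes, was below 0.05. In whole lung, fewer cells with much ribosomal protein mRNA and less of it per cell cannot be told apart.

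Sequence around the start of transcription was read from RefSeq windows of GRCm38.p6, which held 64 of the 99 genes and 57 of the standard ones. A run of at least 6 C and T lay over the annotated start of 19 of the 57 standard genes (33.3%) and of 8.48% of 27025 genes in the table. The longest such run within 60 bases at the start had a median of 10 bases in the standard genes and 6 in all genes. The 9 windows below show the feature in 6 genes that were called in both treatment comparisons, in Rps6 and Rpl7a, which were called in neither, and in Rps27rt, whose bases after the start nearly repeat those of Rps27. Each runs from 30 bases before to 20 bases after the annotated start, and capitals mark the unbroken run of C and T over it.
Rps27, chr3:90213629-90213678, minus strand: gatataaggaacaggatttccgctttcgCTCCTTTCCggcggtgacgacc
Rps27rt, chr9:114982720-114982769, minus strand: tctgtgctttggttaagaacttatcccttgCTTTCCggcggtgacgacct
Rps9, chr7:3704011-3704060, plus strand: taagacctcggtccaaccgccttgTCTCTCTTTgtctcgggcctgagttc
Rps6, chr4:86857348-86857397, minus strand: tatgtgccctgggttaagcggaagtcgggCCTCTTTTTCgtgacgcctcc
Rpl31, chr1:39367821-39367870, plus strand: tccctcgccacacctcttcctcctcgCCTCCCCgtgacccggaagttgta
Rpl34, chr3:130730318-130730367, minus strand: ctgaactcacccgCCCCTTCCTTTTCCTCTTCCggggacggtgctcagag
Rpl35, chr2:39005112-39005161, minus strand: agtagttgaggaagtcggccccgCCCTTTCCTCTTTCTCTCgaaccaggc
Rpl38, chr11:114668550-114668599, plus strand: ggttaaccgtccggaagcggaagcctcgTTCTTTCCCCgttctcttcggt
Rpl7a, chr2:26910777-26910826, plus strand: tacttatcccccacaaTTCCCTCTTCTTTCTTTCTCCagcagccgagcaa
The windows were chosen after the values of the genes were seen. Among the 300-base windows, CCGGAAG, a binding motif of ETS family factors, was present on either strand in 42.1% of the standard genes and 9.93% of all genes. GGGCGG, the core of the GC box, was present in 61.4% against 38.2%, and TATAAA in 10.5% against 15.7%, again on either strand. CTTTCC, which itself is a run of C and T, was present on the coding strand within 60 bases at the start in 26.3% against 3.24%. These are matches of letters and not measured binding.

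Ribosomal protein genes made up a smaller share of the counts in the aged anti-PD-1 libraries than in those of either other aged group. Their share was 4.40%, 5.27% and 5.37% in these libraries. It was 6.68%, 6.29% and 6.12% under control antibody, 6.32%, 7.15% and 5.83% under the combination and 5.64%, 5.35% and 5.77% in young mice. The 3 aged anti-PD-1 libraries lay below all aged control and all combination libraries and overlapped with the young ones, whereas control and combination libraries overlapped. Group means in the same order were 5.01 ± 0.536%, 6.36 ± 0.288%, 6.43 ± 0.666% and 5.59 ± 0.214% (SD, n = 3 each). An exact permutation test of 3 against 3 libraries cannot give a p below 0.1, so the shares are described without one.

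The shares of both subunits were ordered alike. Large subunit genes took 2.45% to 2.93% of the counts in the aged anti-PD-1 libraries, 3.35% to 3.64% in the aged control and 3.21% to 3.90% in the combination libraries. Small subunit genes took 1.95% to 2.43%, 2.76% to 3.03% and 2.62% to 3.25% in the same order. The ratio of small to large subunit counts stayed between 0.798 and 0.835 in the 12 libraries.

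**Figure D1:**
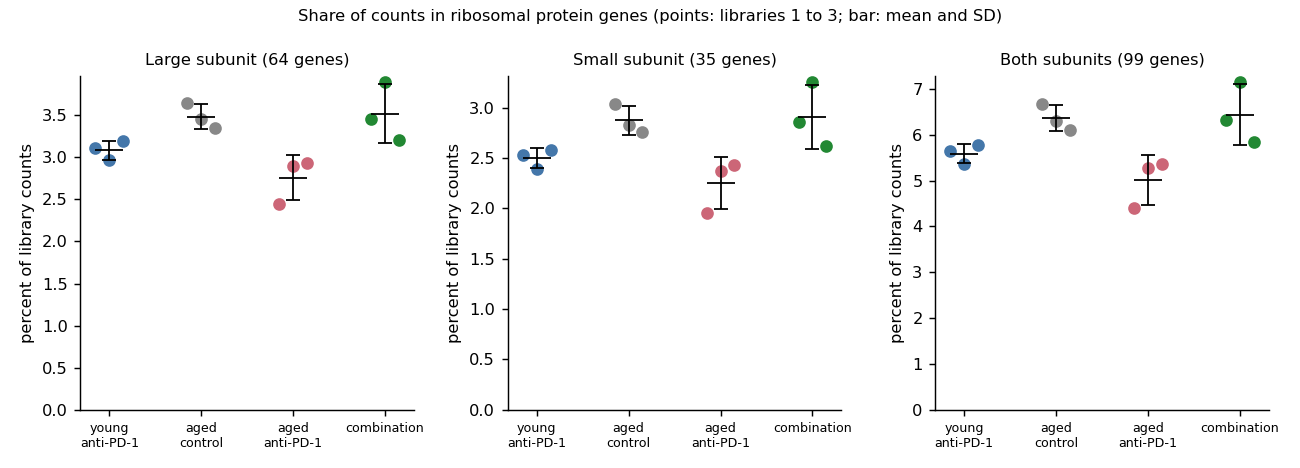
Percent of library counts in large subunit, small subunit and all ribosomal protein genes, by group; points are libraries 1 to 3 and the bar is the mean with its SD. In each panel the 3 aged anti-PD-1 libraries (4.40% to 5.37% for both subunits) lie below the aged control (6.12% to 6.68%) and combination libraries (5.83% to 7.15%).

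The standard genes varied across libraries as a block. On the log2 CPM scale, the first principal component of the 77 genes over 12 libraries held 87.0% of their variance, and 71 of them had a correlation over 0.9 with the median of the block. This is a description across libraries, and all genes of a library share its depth and its scaling factor. The median deviation of the 77 genes from their own means was -0.51, -0.25 and -0.12 in the aged anti-PD-1 libraries and 0.17, 0.52 and 0.08 in the combination libraries. It was 0.23, 0.17 and 0.05 in the aged control and -0.11, -0.19 and -0.01 in the young anti-PD-1 libraries. The first aged anti-PD-1 and the second combination library therefore stood at the ends of the range, and neither group was uniform.

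**Figure D2:**
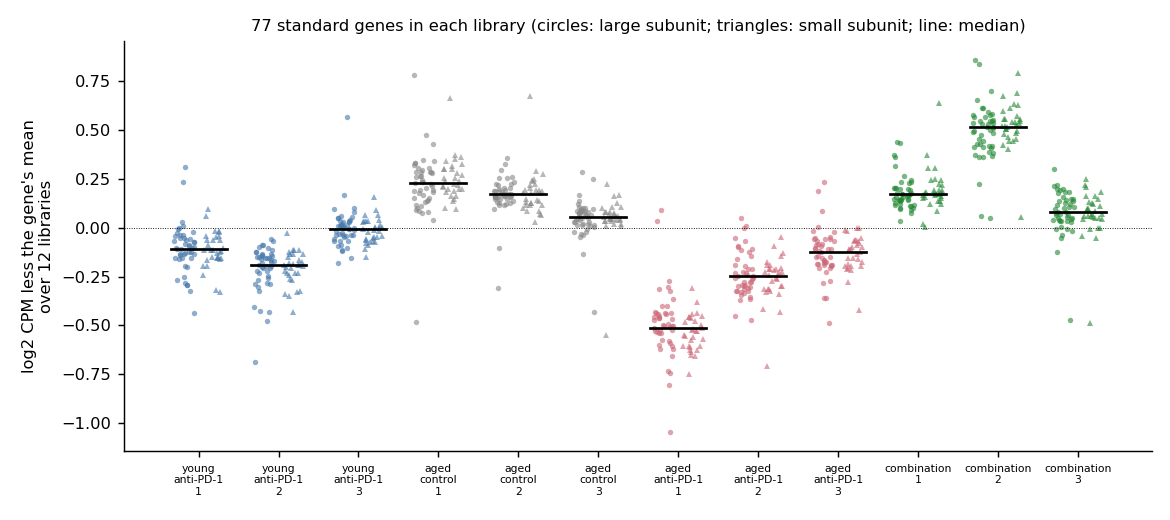
Log2 CPM of each of the 77 standard genes less its mean over the 12 libraries, by library; circles are large subunit genes, triangles small subunit genes, and the line is the median of the 77. The medians run from -0.51 in the first aged anti-PD-1 library to 0.52 in the second combination library, with circles and triangles at like heights within a library.

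Per kilobase of mRNA, the levels of the standard genes had a median of 821 CPM. The highest mean levels per kilobase were those of Rpl41, the shortest protein of the ribosome, at 2819 CPM, Rplp1 of the acidic stalk at 2785 CPM and Rps14 at 2566 CPM. Rpl24 was lowest, at 3.37 CPM per kilobase.

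The first treatment comparison asked how anti-PD-1 alone differed from control antibody in aged lungs. Of 91 ribosomal protein genes tested, 36 fell and none rose; over all genes tested, 5.58% fell and 5.34% rose. The genes that fell were 21 of 56 large and 15 of 35 small subunit genes, with log2 fold changes from -0.75 to -0.38. The median over the 91 was -0.44 (large -0.43, small -0.45), against -0.02 over all genes. The 3 aged anti-PD-1 libraries lay below the 3 control libraries for 81 of the 91, and for 16.4% of all genes. Among the standard genes 32 of 77 fell, among the paralogs 2 of 6 and among the -ps copies 2 of 8.

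The second treatment comparison asked how adding the anti-IL-21 receptor antibody changed the lungs of aged mice given anti-PD-1. Here 67 of the 91 genes rose and none fell, while over all genes tested 4.67% rose and 4.35% fell. They were 40 large and 27 small subunit genes, with log2 fold changes from 0.43 to 1.06. The median over the 91 was 0.56 (large 0.55, small 0.56), against -0.01 over all genes. The combination libraries lay above the aged anti-PD-1 libraries for 83 of the 91, and for 15.7% of all genes. Both comparisons use the same 3 aged anti-PD-1 libraries, so a low value in these sets both directions.

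**Figure D3:**
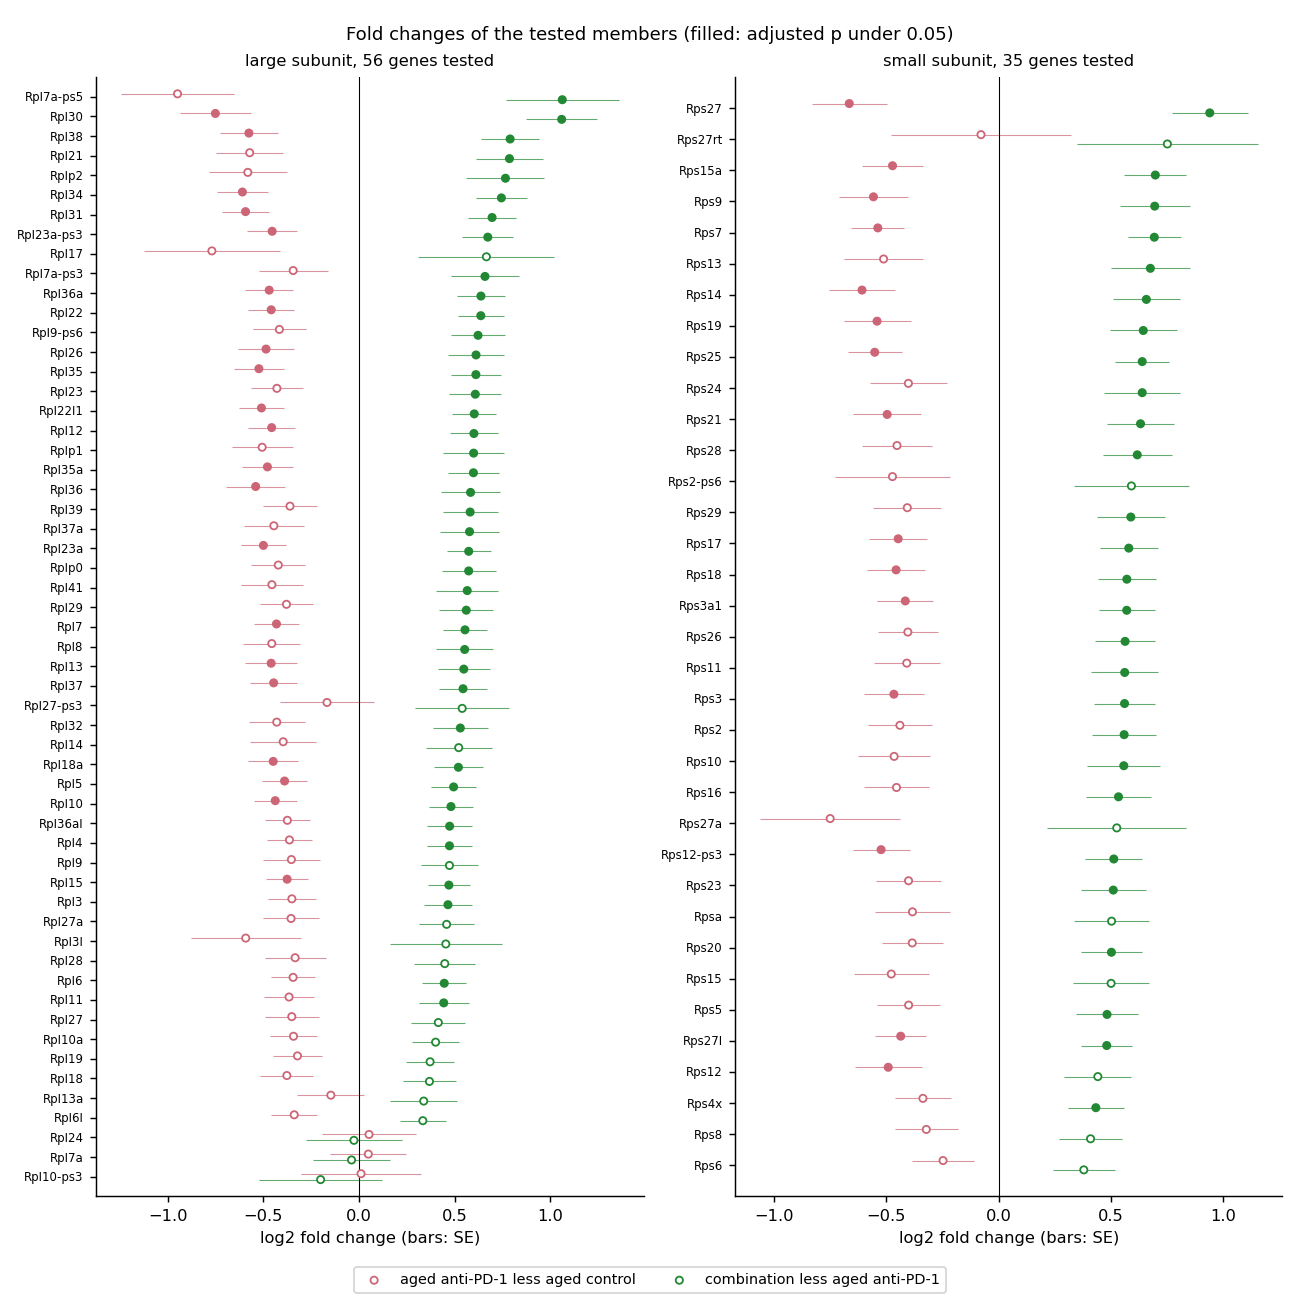
Log2 fold change (x axis, bars are SE) of each tested large subunit gene (left) and small subunit gene (right) in aged anti-PD-1 less aged control and in combination less aged anti-PD-1, ordered by the latter; filled points were called. Values lie to the left of 0 in the first comparison for 88 of 91 genes and to the right in the second for 88, with Rpl24, Rpl7a and Rpl10-ps3 near 0 or on the other side.

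How many genes were called rested on single libraries, among the ribosomal protein genes and among all genes. Against control, 36 of 91 genes (39.6%) were called lower, beside 5.58% of all genes. Without aged control library 2 these became 3 of 92 (3.26%, all genes 1.6%), without aged anti-PD-1 library 1 again 3 of 92 (3.26%, all genes 2.81%), and without aged anti-PD-1 library 2 they became 4 of 92 (4.35%, all genes 2.30%). Without aged anti-PD-1 library 1 the share lies near that of all genes. Without combination library 2 they were 48 of 91 (52.7%, all genes 5.48%). The young libraries are not in this comparison but share its dispersion fit, and leaving out any of them also lowered the count. Without young library 1 it was 22 of 92 (23.9%, all genes 4.65%). It was 18 of 92 without young library 2 (19.6%, all genes 4.03%) and 16 of 91 without young library 3 (17.6%, all genes 4.12%). For the combination against anti-PD-1, 67 of 91 (73.6%) were called higher, beside 4.67% of all genes. They became 6 of 91 without combination library 2 (6.59%, all genes 0.671%), 13 of 92 without aged anti-PD-1 library 1 (14.1%, all genes 1.44%) and 20 of 92 without aged anti-PD-1 library 2 (21.7%, all genes 1.67%). Without both aged anti-PD-1 library 1 and combination library 2, a choice made after seeing the data, 11 genes fell in the first comparison (12.1%, all genes 3.01%). In the second, none of the 91 was called, where edgeR called 36 of all genes. The medians over the members kept their sign in these fits, at -0.34 and 0.33 without both libraries.

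Among large subunit genes, Rpl30 (ENSMUSG00000058600, chromosome 15, 34440505 to 34443640, mm10) had the steepest fall of those called. It stood at 414, 401 and 628 CPM in young mice on anti-PD-1, 601, 701 and 681 CPM under control antibody, 335, 408 and 436 CPM in aged mice on anti-PD-1 and 757, 1013 and 688 CPM under the combination. All aged anti-PD-1 libraries lay below all control and all combination libraries, and the young libraries overlapped with them. Its log2 fold change was -0.75 ± 0.19, edgeR adjusted p 0.0238, against control, and 1.06 ± 0.19, edgeR adjusted p 0.00701, for the combination against anti-PD-1.

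Rpl31 (ENSMUSG00000073702, chromosome 1, 39367842 to 39371911, mm10), a protein near the exit of the peptide tunnel, stood at 659.6, 652 and 744 CPM in young mice on anti-PD-1, 817, 798 and 739.8 CPM under control antibody, 487, 501 and 574 CPM in aged mice on anti-PD-1 and 753, 989.7 and 788 CPM under the combination. The aged anti-PD-1 libraries were the 3 lowest of the 12. It fell against control (-0.59 ± 0.13, edgeR adjusted p 0.0132) and rose in the combination group (0.70 ± 0.13, edgeR adjusted p 0.00810). Rpl34 fell and rose in the same way (-0.61 ± 0.14 and 0.75 ± 0.14), with aged anti-PD-1 libraries from 388 to 490 CPM against 632 to 749 in the control and 681 to 881 in the combination libraries. Rpl38 also passed in both (-0.58 ± 0.15 and 0.79 ± 0.15), while Rpl21 rose in the combination group (0.79 ± 0.18) but was not called against control (-0.57 ± 0.18, edgeR adjusted p 0.0509).

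Rpl5 and Rpl11, which bind the 5S rRNA and also the p53 regulator MDM2, both rose in the combination group (0.50 ± 0.12 and 0.44 ± 0.13). Against control Rpl5 fell (-0.39 ± 0.12, edgeR adjusted p 0.0471) and Rpl11 was not called (-0.37 ± 0.13, edgeR adjusted p 0.0845). Rpl3 and Rpl4, core proteins of the large subunit, rose in the combination group (0.47 ± 0.12 and 0.47 ± 0.12) and were not called against control (-0.35 ± 0.12 and -0.36 ± 0.12). Rpl7 and Rpl10, the latter joined late in assembly, were called in both comparisons, at -0.43 ± 0.12 and -0.44 ± 0.11 against control and 0.55 ± 0.12 and 0.48 ± 0.11 in the combination group.

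The stalk proteins, which recruit translation factors, had the same order of groups. Rplp0, the base of the stalk, stood at 1044, 1017 and 1130.3 CPM in young mice on anti-PD-1, 1231, 1397 and 1239.6 CPM under control antibody, 813, 963 and 1111 CPM in aged mice on anti-PD-1 and 1317, 1689 and 1292 CPM under the combination. Its aged anti-PD-1 libraries lay below those of the other aged groups. Rplp0, Rplp1 and Rplp2 rose in the combination group (0.57 ± 0.14, 0.60 ± 0.16 and 0.77 ± 0.20) and were not called against control (-0.42 ± 0.14, -0.51 ± 0.16 and -0.58 ± 0.20).

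Among called small subunit genes, Rps27 (ENSMUSG00000090733, chromosome 3, 90212522 to 90213651, mm10) had the largest fold changes. It stood at 552, 515 and 737 CPM in young mice on anti-PD-1, 868, 735 and 808 CPM under control antibody, 440.2, 563 and 517 CPM in aged mice on anti-PD-1 and 896, 1199 and 823 CPM under the combination. No aged anti-PD-1 library reached a control or combination library. It fell against control (-0.66 ± 0.17, edgeR adjusted p 0.0254) and rose in the combination group (0.94 ± 0.17, edgeR adjusted p 0.00794).

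Rps14, near the platform of the small subunit, stood at 1529.9, 1427 and 1690.4 CPM in young mice on anti-PD-1, 2059, 1972 and 1873 CPM under control antibody, 1084, 1346 and 1444 CPM in aged mice on anti-PD-1 and 1839, 2462 and 1809.5 CPM under the combination. The aged anti-PD-1 group was again below the other aged groups without overlap. Rps14 fell (-0.61 ± 0.15) and rose (0.66 ± 0.15), as did Rps19, which is mutated in Diamond-Blackfan anaemia (-0.54 ± 0.15 and 0.64 ± 0.15), and Rps3 of the mRNA entry channel (-0.47 ± 0.13 and 0.56 ± 0.13).

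Rps6, the substrate of the S6 kinases, was called in neither comparison (-0.25 ± 0.14, edgeR adjusted p 0.250, and 0.38 ± 0.14, edgeR adjusted p 0.0966). It stood at 740.4, 700.2 and 756 CPM in young mice on anti-PD-1, 885, 872 and 814 CPM under control antibody, 585, 778 and 803 CPM in aged mice on anti-PD-1 and 896, 1093 and 828 CPM under the combination, so the aged anti-PD-1 libraries still lay below the other aged groups. Rpsa, also known as a laminin receptor, was likewise not called (-0.38 ± 0.17 and 0.50 ± 0.17). Rps4x was called in the combination comparison alone (0.43 ± 0.13, edgeR adjusted p 0.0468; against control -0.34 ± 0.13, edgeR adjusted p 0.0956). Whether such genes differ from those called was not tested.

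The paralogs Rpl22l1, Rps27l and Rpl36al had fold changes in the direction of their usual copies. Rps27rt, given below, had -0.08 ± 0.40 against control, beside -0.66 ± 0.17 for Rps27, and was not called. Rpl22l1 fell by 0.51 and rose by 0.60 on the log2 scale, beside -0.46 ± 0.12 and 0.64 ± 0.12 for Rpl22. Rps27l, a target of p53, had -0.44 ± 0.11 and 0.48 ± 0.11, both called. Rpl36al was called in the combination group alone (0.47 ± 0.12), where Rpl36a was called in both (-0.47 ± 0.13 and 0.64 ± 0.13). Rpl39 was called in the combination group (0.58 ± 0.14), and its paralog Rpl39l had 49 counts over the 12 libraries and was not tested. The muscle paralog Rpl3l, between 0.82 and 2.24 CPM, was not called (-0.59 ± 0.29 and 0.45 ± 0.29), and Rpl10l, known from the testis, had 0 counts. Rpl7l1, outside the set by its rule, was not called either (-0.19 ± 0.10 and 0.21 ± 0.10).

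A few genes did not follow the block. After the median of the block was taken off, the standard genes had a median SD of 0.0722 (log2) over the libraries, and it was above 0.3 for 4 genes: Rpl17, Rps27a, Rpl7a and Rpl24. These 4, with Rpl13a and Rpl10-ps3, were singled out after their values were seen. Rps27a, which encodes a ubiquitin fusion, stood at 599.8, 552 and 626 CPM in young mice on anti-PD-1, 889.8, 895 and 384 CPM under control antibody, 454, 344 and 491 CPM in aged mice on anti-PD-1 and 873, 583 and 400.1 CPM under the combination. Library 3 of the control group and library 3 of the combination group lay within the aged anti-PD-1 range, and it was not called (-0.75 ± 0.31 and 0.53 ± 0.31). Rpl17 stood at 266, 133 and 317 CPM in young mice on anti-PD-1, 369, 275 and 159 CPM under control antibody, 104, 215 and 153 CPM in aged mice on anti-PD-1 and 275, 224 and 249 CPM under the combination. Its groups overlapped against control, and it was not called (-0.77 ± 0.36 and 0.67 ± 0.36).

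Rpl7a and Rpl24 showed no difference past the test, at 0.05 ± 0.20 and 0.05 ± 0.25 against control and -0.04 ± 0.20 and -0.03 ± 0.25 in the combination group. Rpl24 was at 1.61 to 2.76 CPM and Rpl13a at 17.9 to 31.9 CPM. Rpl7a-ps5 stood at 32.3, 32.2 and 38.7 CPM in young mice on anti-PD-1, 27.8, 44.8 and 38.0 CPM under control antibody, 13.7, 19.9 and 23.9 CPM in aged mice on anti-PD-1 and 23.3, 58.6 and 38.1 CPM under the combination. It rose in the combination group (1.06 ± 0.29, edgeR adjusted p 0.0430) although the groups overlapped, and was not called against control (-0.95 ± 0.29, edgeR adjusted p 0.0577). Rps27rt stood at 101, 116 and 69.1 CPM in young mice on anti-PD-1, 81.4, 107 and 87.4 CPM under control antibody, 60.6, 47.8 and 153 CPM in aged mice on anti-PD-1 and 97.8, 148 and 194 CPM under the combination, with overlap between all groups, and was not called (-0.08 ± 0.40 and 0.75 ± 0.40). Values of these genes are uncertain, because ribosomal protein genes have near-identical copies and how shared reads were counted is not given in the sources used here.

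**Figure D4:**
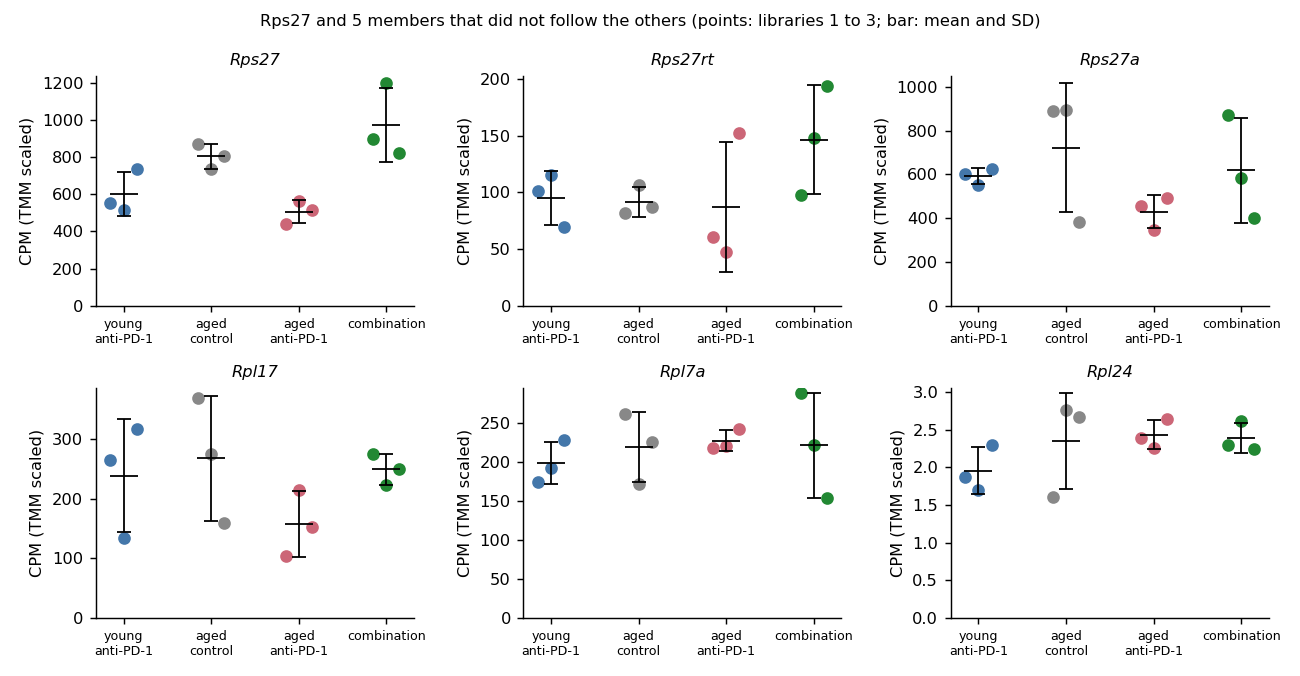
TMM-scaled CPM of Rps27 and of 5 genes that did not follow the block, by group; points are libraries 1 to 3 and the bar is the mean with its SD. Rps27 separates the aged anti-PD-1 libraries (440 to 563 CPM) from the control and combination libraries, while the groups overlap for Rps27rt, Rps27a, Rpl7a and Rpl24 in both treatment comparisons.

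Rows annotated as ribosomal protein pseudogenes are not among the 99 genes. They took 0.124% to 0.206% of the counts, and 89 of 267 were tested. Of these, 12 fell against control (13.5%, median -0.50) and 20 rose in the combination group (22.5%, median 0.60), beside 5.58% and 4.67% of all genes.

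The last treatment comparison set the combination group beside aged control. None of the 91 genes was called, as was none of all genes tested (0%) by edgeR. An unadjusted edgeR p under 0.05 was reached by 0 of the 91 and 1228 of all genes, and DESeq2 called 76 genes and none of the 91. The median over the members was 0.11, and the libraries of 1 member, Rpl22, did not overlap (0.18 ± 0.12), where 3.92% of all genes lay above without overlap. Rps27 had 0.27 ± 0.17, and the largest uncalled value was that of Rps27rt (0.67 ± 0.40, edgeR adjusted p 0.833). Without combination library 2 the median was -0.01.

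Between aged and young mice under anti-PD-1, 1 of the 91 genes fell and none rose, where 7.16% of all genes fell and 8.09% rose. That gene was Rpl31 (-0.40 ± 0.12, edgeR adjusted p 0.0463), whose young libraries stood at 652 to 744 CPM and aged ones at 487 to 574. The median over the members was -0.19 (large -0.20, small -0.18). Markers of other cells moved in this comparison. All 10 alveolar epithelial markers fell (2.89% to 3.39% of the counts in young and 1.71% to 2.04% in aged libraries), as did 3 of 8 airway and 2 of 10 fibroblast and smooth muscle markers. Of the blood cell lists, 9 of 10 B cell markers (0.0262% to 0.0296% in young and 0.0537% to 0.0592% in aged libraries), 6 of 6 platelet markers (0.0179% to 0.0358% and 0.0958% to 0.106%) and 4 of 10 T cell markers rose. Their part in the values of the ribosomal protein genes was not tested. Rps27l (-0.31 ± 0.11, edgeR adjusted p 0.0778) and Rpl7a-ps5 (-0.85 ± 0.29, edgeR adjusted p 0.0719) were not called. The Rpl31 call was lost in most fits that left out a library, with RLE factors and with a length trend removed.

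Other mRNAs of the translation machinery were read from lists, whose shares stand beside 5.58% of all genes lower against control and 4.67% higher in the combination group. Of 22 further TOP mRNAs, 4 fell against control (18.2%, median -0.28) and 8 rose in the combination group (36.4%, median 0.37). The translation initiation factor subunit Eif3f fell (-0.58 ± 0.12) and rose (0.72 ± 0.12), as did Eif3e (-0.41 ± 0.09 and 0.48 ± 0.09), Eif3h (-0.37 ± 0.11 and 0.45 ± 0.11) and Tpt1 (-0.51 ± 0.13 and 0.64 ± 0.13). Over all 54 initiation factor genes tested, 7 fell (13%, median -0.13) and 7 rose (13%, median 0.12). Eif3e, Eif3f, Eif3h, Eif3k, Eif3l, Eif3m and Eif4b are in both this list and the TOP list, so their counts are not separate. Eif1, which governs start codon choice, had -0.66 ± 0.12 and 0.63 ± 0.12.

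Of 44 ribosome biogenesis genes, 3 fell against control (6.82%, median -0.10) and 4 rose in the combination group (9.09%, median 0.15), shares near the 5.58% and 4.67% of all genes. Rrs1, needed for assembly of the large subunit, fell (-0.55 ± 0.11) and rose (0.73 ± 0.11), as did Nip7 (-0.44 ± 0.13 and 0.50 ± 0.13). Fbl, the rRNA methyltransferase, rose (0.48 ± 0.12). Of 21 mTORC1 and TOP mRNA regulators, 2 fell and 2 rose in the respective comparisons (9.52% each), with medians of 0.02 and -0.03. With so few genes these counts are also near the share of all genes. The genes called were Myc, a transcription factor that drives ribosome synthesis (-0.90 ± 0.15 and 0.72 ± 0.15), and Sesn2, an inhibitor of mTORC1 (-0.60 ± 0.15 and 0.62 ± 0.15).

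Mitochondrial ribosomal proteins translate the mRNAs of the organelle and are encoded by other genes. Of 77 tested, 9 fell against control (11.7%, median -0.18) and 8 rose in the combination group (10.4%, median 0.18), beside 5.58% and 4.67% of all genes, among them Mrpl33 (-0.60 ± 0.12 and 0.66 ± 0.12). Of 87 nuclear genes of the respiratory chain, 15 fell (17.2%, median -0.31) and 11 rose (12.6%, median 0.28), among them Cox7a2 (-0.47 ± 0.11 and 0.48 ± 0.11). No test set these lists against the ribosomal protein genes.

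**Figure D5:**
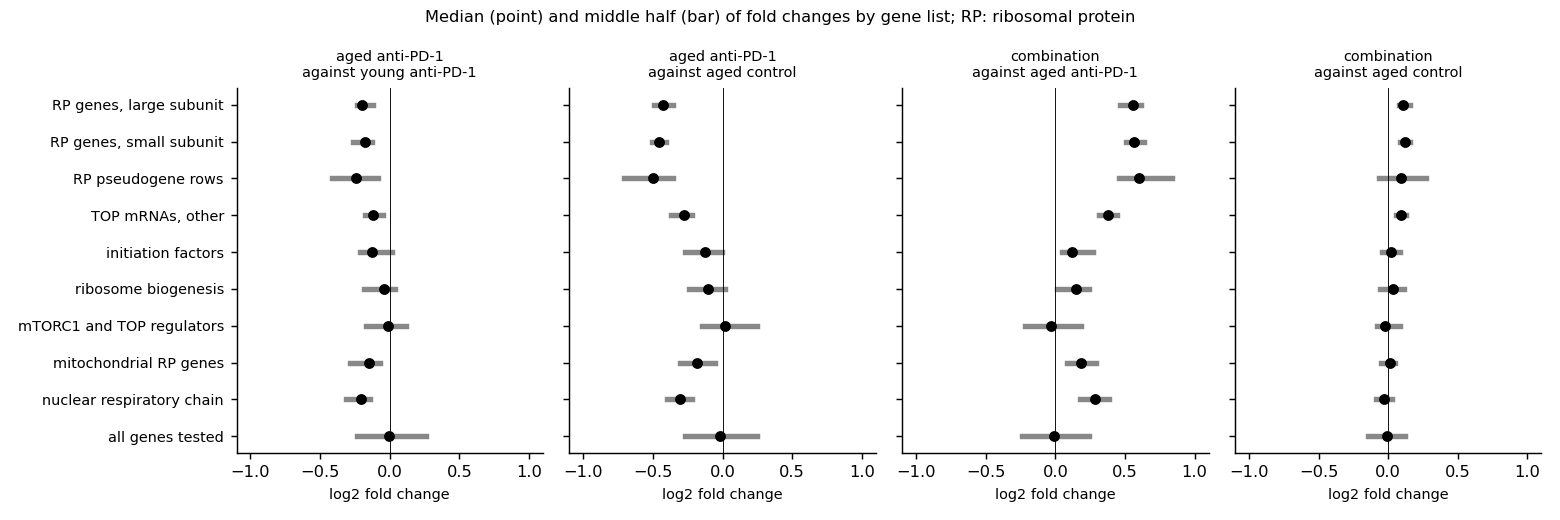
Median log2 fold change (point) and the range from the lower to the upper quartile (bar) of gene lists in the 4 comparisons. The large and small subunit medians (-0.43 and -0.45, then 0.55 and 0.56 in the middle panels) lie farther from 0 than those of initiation factors (-0.13 and 0.12) and ribosome biogenesis (-0.10 and 0.15). In these panels the medians of pseudogene rows lie farther from 0 than those of both subunits. Those of other TOP mRNAs and nuclear respiratory chain genes lie between the subunits and the initiation factors. Some initiation factor genes are also among the other TOP mRNAs.

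Transcript length moved with these differences. The standard genes had a median mRNA length of 827 bases, against 2471 for all protein-coding rows. Genes of any type outside the set were split by length, 1873 under 1000 bases and 4390 over 4000 bases. The median deviation of the short less that of the long ones was -0.30, -0.21 and -0.13 (log2) in the aged anti-PD-1 libraries and 0.04, 0.38 and 0.02 in the combination libraries. It was 0.28, 0.15 and 0.01 in the aged control libraries and -0.04, -0.11 and 0.00 in the young ones. Length was that of the principal coding transcript or, for a gene without one, of all its exons joined. Non-coding and ribosomal protein pseudogene rows were not left out, so the trend is not one of other mRNAs alone. A trend on this length was also fitted in each library, over tested genes above a minimum level, the ribosomal protein genes included. The ribosomal protein genes thus helped to set that trend. Taking it out of each library was an alternative chosen after seeing the data. In that fit 6 of the 91 genes fell against control (6.59%, median -0.22), near the 3.93% of all genes. In the combination group 30 rose (33.0%, median 0.32), beside 3.71% of all genes. What sets the length trend was not tested.

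Markers of other cells also moved in the same comparisons. Over all genes tested, 5.58% fell and 5.34% rose against control, and 4.67% rose and 4.35% fell in the combination group. Counts of 1 or 2 genes in such short lists say little beside these shares. Neutrophil markers took 0.0718% to 0.109% of the counts in the aged anti-PD-1 libraries, 0.173% to 0.252% in the control and 0.152% to 0.191% in the combination libraries. Of 8, 5 fell against control and 5 rose in the combination group. Endothelial markers went the other way, with 6 of 8 higher against control and 5 lower in the combination group, at 0.285% to 0.343%, 0.163% to 0.251% and 0.150% to 0.212% of the counts in that order. Haemoglobin took 1.26% to 1.99% of the counts in the aged control, 1.06% to 1.30% in the aged anti-PD-1 and 1.76% to 3.98% in the combination libraries. None of its 4 genes was called against control, where the first pair of ranges overlap, and 3 rose in the combination group. Mitochondrially encoded mRNA took 6.39% to 9.48%, 7.24% to 10.9% and 10.8% to 13.8% in the same order, with 0 of 12 genes called against control and 7 higher in the combination group. Against control, 4 of 10 B cell markers rose (0.0260% to 0.0483% in control and 0.0537% to 0.0592% in aged anti-PD-1 libraries). Of 8 airway epithelial markers 2 fell, of 10 fibroblast and smooth muscle markers 3 fell, and 1 of 6 platelet markers was called lower. The libraries of all 6 platelet markers lay below control without overlap, as did those of 16.4% of all genes. In the combination group 2 fibroblast and smooth muscle markers rose, and no B cell, airway or platelet marker was called. The part of these cells and transcripts in the ribosomal protein differences was not tested.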

How the data were processed

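The deposited values are raw counts per gene, which the authors left unnormalized, per the file headers. Per the submitters' processing notes, the tools were featureCounts 1.6.3, HISAT2, Trimmomatic and bcl2fastq 1.8.4, and the build was mm10. The annotation release, the options, the strand setting and the treatment of reads shared between copies are not given in the sources used here. Poly(A) RNA was made into directional libraries, per the labels' protocols.

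Genes were kept by filterByExpr (minimum count 10, minimum total count 15). All 12 libraries were fitted together in edgeR 4.0.16 (limma 3.58.1, R 4.3.3) with TMM scaling, 4 group means and robust quasi-likelihood dispersion (8 residual degrees of freedom, common biological coefficient of variation 0.156). Tests were two-sided, adjusted over the 18556 genes tested. The script was tested on simulated data. Lengths came from GENCODE M21 principal coding transcripts or, for genes without one, from all exons of the gene joined. DESeq2 1.42.0 was an alternative, as were other scalings and filters, a replicate block, fits of only 2 groups, and leaving out each library. Figures used Python 3.11.15 and matplotlib 3.10.9.

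The members, gene lists and comparisons were chosen with earlier results of these data known. Named genes were a fixed set of core proteins and paralogs with their usual copies, the 5 largest called changes in each direction, the 2 largest uncalled ones, and up to 4 called or 2 uncalled genes from each other list; a selection of these is printed. Residuals of same-numbered libraries had a median correlation of -0.0227 (range -0.240 to 0.213, 18 pairs). They showed no pairing by replicate number, though so few libraries cannot exclude it.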

Additional observations from a re-analysis of the deposited data

How the results depend on the processing

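The direction of the member medians held in every alternative run in both treatment comparisons that share the aged anti-PD-1 libraries and between the ages, but the counts of called genes did not hold. Against aged control, the 36 called genes (39.6%, beside 5.58% of all genes lower) became 64 with DESeq2 (70.3%, all genes 8.30%), 7 in a fit of only the 2 groups (7.69%, all genes 2.08%), 6 with the length trend removed (6.59%, all genes 3.93%), 21 with replicate number as a block (23.1%, all genes 4.53%) and 11 without aged anti-PD-1 library 1 and combination library 2 (12.1%, all genes 3.01%), and 3 to 48 without 1 library. For the combination against aged anti-PD-1, the 67 (73.6%, beside 4.67% of all genes higher) became 35 in a fit of only the 2 groups (38.5%, all genes 4.13%), 30 with the length trend removed (33.0%, all genes 3.71%), 37 with library totals alone (40.7%, all genes 1.95%) and 0 without those libraries (all genes 0.106%), and 6 to 70 without 1 library; the replicate block gave 55 (60.4%, all genes 3.86%). For aged against young anti-PD-1, the 1 called gene (1.1%, beside 7.16% of all genes lower) became 6 with DESeq2 (6.59%) and 5 in a fit of only the 2 groups (5.49%), both below the share of all genes in those fits (8.60% and 9.28%), and 0 with RLE factors, with TMM factors that leave out immunoglobulin, haemoglobin and mitochondrially encoded genes, with the length trend removed and without those libraries, and 0 to 2 without 1 library. Residuals showed no pairing by replicate number, and the block moved no other count by more than 1.5 times.

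With the length trend removed, the median log2 fold change over all members was -0.22 against aged control (large -0.22, small -0.23), 0.32 for the combination against aged anti-PD-1 (large 0.32, small 0.32) and -0.067 for aged against young anti-PD-1. Without both libraries it was 0.33 in the combination comparison (large 0.33, small 0.32). With library totals alone it was 0.36 there (small 0.36), where the median of all genes moved to -0.21 and 1.95% of genes were higher and 14.4% lower. Without 1 library, the medians ran from -0.53 to -0.34 against aged control (large -0.51 to -0.36, small -0.55 to -0.34), from 0.40 to 0.65 for combination against aged anti-PD-1 (large 0.40 to 0.65, small 0.41 to 0.66), from -0.27 to -0.09 for aged against young anti-PD-1 (large -0.27 to -0.10, small -0.28 to -0.07) and from -0.01 to 0.20 for combination against aged control (large -0.01 to 0.19, small -0.02 to 0.20). With immunoglobulin, haemoglobin and mitochondrially encoded counts left out of the totals, the shares of counts became 6.09% (young anti-PD-1), 7.10% (aged control), 5.64% (aged anti-PD-1) and 7.73% (combination). The cause of these shifts was not tested, apart from what each setting removes.

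Of 103 values of named genes, 36 were called. Of these 36, 31 lost the call without both libraries, 29 without aged anti-PD-1 library 1 alone, 25 without aged anti-PD-1 library 2, 20 with the length trend removed, 19 without combination library 2, 18 in a fit of only the 2 groups and 6 with the replicate block. Leaving out any other single library removed 3 to 15 of these calls. The direction turned in at least 1 setting for 17 uncalled values and for 0 called ones. These uncalled log2 fold changes turned as follows. Relative to aged control, in the aged anti-PD-1 group, Rps27rt had 0.20 with the length trend removed, 0.0093 with library totals alone, 0.13 without both libraries and -0.76 to 0.21 without 1 library. Between aged and young mice, Rpl36a had 0.062 with the length trend removed and -0.16 to 0.025 without 1 library. Rpl39 had 0.10 with the length trend removed, 0.0018 with library totals alone, 0.058 without both libraries and -0.15 to 0.083 without 1 library. Rps27rt had 0.075 without both libraries and -0.81 to 0.16 without 1 library. Rps4x had 0.0058 with the length trend removed. Rps6 had 0.089 with the length trend removed, 0.013 with library totals alone, 0.11 without both libraries and -0.10 to 0.11 without 1 library. Rpsa had 0.0021 in the fit of 2 groups, 0.039 with the length trend removed, 0.029 with library totals alone, 0.0051 with TMM factors of fewer genes, 0.16 without both libraries and -0.12 to 0.16 without 1 library. Between the combination and control groups, Rpl10 had -0.052 with library totals alone, -0.048 without both libraries and -0.038 to 0.12 without 1 library. Rpl11 had -0.019 with library totals alone, -0.049 without both libraries and -0.040 to 0.14 without 1 library. Rpl22l1 had -0.0034 with library totals alone, -0.023 without both libraries and -0.013 to 0.15 without 1 library. Rpl36al had -0.025 without both libraries and -0.015 to 0.20 without 1 library. Rps19 had -0.042 without both libraries and -0.033 to 0.21 without 1 library. Rps27a had -0.56 to 0.011 without 1 library. Rps27l had -0.048 with library totals alone, -0.041 without both libraries and -0.035 to 0.093 without 1 library. Rps3 had -0.0045 with library totals alone, -0.058 without both libraries and -0.049 to 0.18 without 1 library. Rps4x had -0.0014 with library totals alone, -0.019 without both libraries and -0.0090 to 0.17 without 1 library. Rpsa had -0.028 without both libraries and -0.019 to 0.22 without 1 library.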
